A study of Homo sapiens with 18 samples.

Results

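The p53 target genes described here are 31 genes that p53 is known to switch on, from MDM2 and CDKN1A to the death receptor gene TNFRSF10A. They were found in the deposited table by their gene symbols, and each of the 31 matched a single row of the 58870 genes listed. Of these, 30 had enough counts to be tested among 17962 tested genes. The study asked what exon 7 of NRF1 (nuclear respiratory factor 1, a transcription factor that binds GC-rich promoters of mitochondrial and housekeeping genes) does for its function. Bulk RNA was sequenced from HEK293 Flp-In, a line derived from human embryonic kidney that holds a genomic site for inserting transgenes. There were 18 libraries, 3 for each of 6 conditions. NRF1-ΔE7 cells carried a doxycycline-inducible, 3×FLAG-tagged NRF1 without exon 7, NRF1-FL cells carried the same construct with the full-length NRF1, and the remaining cells, named by the labels for their siRNA alone, are called cells without a transgene here. Whether these are the parental line or carry an empty or control insert is not given. Cells of each kind were transfected with an siRNA against NRF1 (siNRF1) or with a non-targeting siRNA (siNT). Both transgenes were made resistant to the siRNA, and according to the labels doxycycline was added to all cells 24 h after transfection (the study's methods give an earlier time). Each isoform was carried by a stable line of its own, so that isoform and line cannot be told apart, and knockdown rested on 1 siRNA sequence. The labels do not say whether the 3 replicates were separate cultures, so p-values measure only the spread between these libraries, which may be technical.

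p53 is a transcription factor that is kept scarce by MDM2, a ubiquitin ligase that is itself a p53 target, and its relative MDM4 blocks p53 without degrading it. When DNA damage, ribosome stress or other stress frees p53, it binds paired copies of a short element and raises genes that stop the cell cycle, repair DNA, reset metabolism or kill the cell. HEK293 cells carry adenoviral E1 genes, and the viral E1B protein binds p53 and represses its transactivation, so the level of p53 protein in these cells is no guide to its activity.

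Library totals ran from 31.2 to 44.8 M counts. NRF1 RNA, the check of the labels, was 38.3 ± 1.35 CPM (counts relative to library size, TMM-scaled, mean ± SD, n = 3) with siNRF1 and 58.5 ± 0.555 with siNT in the NRF1-ΔE7 line, where reads of the resistant transgene are counted with the endogenous gene. It was 49.6 ± 0.715 and 54.4 ± 1.78 CPM in the NRF1-FL line, and 8.05 ± 1.07 and 30.1 ± 0.929 CPM without a transgene. The HEK293-expressed genes KRT8, KRT18, VIM, NEFL and ENO2 were present in all libraries. Of 5 blood markers, HBB was at 0 in all 18 and CD3E in 17, and CD14 was found in every library (at most 0.695 CPM of the library total). The summed blood markers were 0.669 to 0.914 CPM with siNRF1 and 0.197 to 0.453 with siNT in the NRF1-ΔE7 line, 0.452 to 0.644 and 0.372 to 0.558 in the NRF1-FL line, and 0.569 to 0.617 and 0.353 to 0.50 without a transgene. The 6 fibroblast markers summed to 86.2 to 91.4 CPM with siNRF1 and 27.1 to 30.6 with siNT in the NRF1-ΔE7 line, 75.5 to 80.6 and 30.3 to 31.4 in the NRF1-FL line, and 75.0 to 78.6 and 28.3 to 30.1 without a transgene. ACTA2, TAGLN and COL1A1 were higher with siNRF1 in every line. LUM went the other way in every line, with 0.0309 to 0.0743 CPM against 0.192 to 0.466 for siNT without a transgene. COL3A1 also dropped with NRF1-FL, to 0.308 to 0.369 CPM from 0.515 to 0.697 for siNT. Its siRNA groups overlapped in the NRF1-ΔE7 line and without a transgene. Of the defining markers, DCN was at 0 in 13 libraries and LUM at 0 in 4 and at most 0.466 CPM. The part of these markers in the results below was not tested. KRT5, a keratinocyte gene, stood apart at 13.2 CPM (of the library total) in siNRF1 replicate 3, at 2.10 in siNRF1 replicate 1 and at 1.51 in siNRF1 with NRF1-ΔE7 replicate 2, against at most 0.471 elsewhere. Counts of p53 target genes are therefore also given without siNRF1 replicates 1 and 3. The share of counts from mitochondrial genes was 1.19 to 1.66% with siNRF1 and 0.767 to 0.975% with siNT, and its part in the results below was not tested.

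The p53 element is shown because it is the sequence that p53 binds. A p53 binding sequence is made of 2 copies of a 10-base element, each of 3 purines, C, 2 bases that are A or T, G and 3 pyrimidines. Matches with no spacer, with C and G fixed and at most 2 other mismatches were searched within 3000 bases on either side of each gene's canonical start (hg38, GENCODE v44). The element reads the same on both strands. Such a match was present at 16 of the 30 tested p53 target genes, against 4.44% of 17846 tested genes with a start. Capitals mark bases 4 to 7 of each 10-base copy, the core, and each sequence is written 5′ to 3′ on the strand of its gene.
MDM2: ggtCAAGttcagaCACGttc (chr12:68808923-68808942, plus strand, intron 1)
CDKN1A: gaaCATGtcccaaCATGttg (chr6:36676449-36676468, plus strand, upstream)
BAX: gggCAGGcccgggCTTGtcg (chr19:48955213-48955232, plus strand, intron 1)
EDA2R: gaaCATGcctggaCGTGtcc (chrX:66638713-66638732, minus strand, intron 1)
GADD45A: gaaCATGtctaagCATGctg (chr1:67686775-67686794, plus strand, intron 3)
SPATA18: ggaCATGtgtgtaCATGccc (chr4:52051957-52051976, plus strand, intron 1)
PLK2: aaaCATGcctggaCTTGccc (chr5:58462274-58462293, minus strand, upstream)
ZMAT3: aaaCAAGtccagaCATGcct (chr3:179070188-179070207, minus strand, intron 1)
PLK2 and ZMAT3 held the only matches without a mismatch, EDA2R and GADD45A had 1 mismatch, and the other 4 shown had 2. The CDKN1A match lay at -2256 bases from the start (upstream) and the MDM2 match 756 bases downstream, in intron 1, where the second promoter of MDM2 is known to lie. A match is a description of letters, not a measured binding site. In the shorter RefSeq promoter window (250 bases before to 50 after the start), a single mismatch-free 10-base copy was found for AEN, FDXR and PLK2, which are 3 of 25 p53 target genes with a promoter sequence, against 5.28% of 11713 tested genes.

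**Figure D1:**
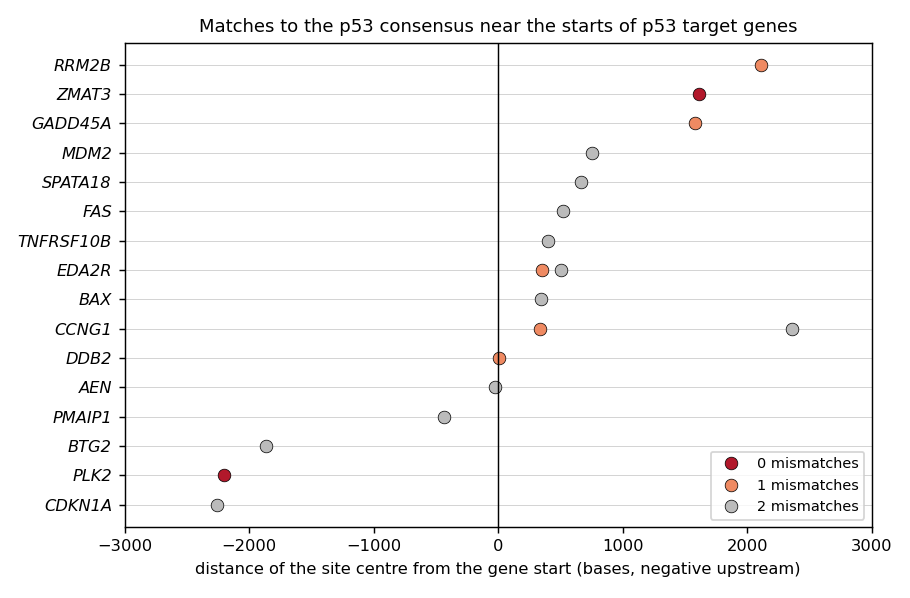
Distance in bases of each consensus match from the gene's canonical start (x axis, negative upstream) for the 16 p53 target genes with a match (y axis), coloured by the number of mismatches. The matches run from -2256 bases at CDKN1A to 2360 bases at CCNG1, and EDA2R and CCNG1 hold a pair each.

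With siNRF1, more p53 target genes rose than fell. In the NRF1-ΔE7 line, 11 of the 30 were called higher and 4 lower by edgeR's quasi-likelihood test (a fold-change beyond 0.5 on the log2 scale in either direction, with an adjusted p under 0.05), where 16.0% of all tested genes were called higher and 16.8% lower. With NRF1-FL, 11 were called higher and 3 lower, against 13.1 and 14.0% of all genes. Without a transgene 9 were called higher and 5 lower, against 13.7 and 15.2% of all genes. Leaving out siNRF1 replicates 1 and 3 gave 8 and 5, a fit in which that condition keeps 1 library, assumed to vary like the other conditions. At the adjusted p alone ("passed the test"), 19, 20 and 19 rose and 8, 7 and 9 fell in the NRF1-ΔE7 line, the NRF1-FL line and cells without a transgene. The background is wide, since 34.5, 32.2 and 32.1% of all genes passed upward there, and 33.6, 31.3 and 32.4% downward. The median log2 fold-change of the p53 target genes was 0.31, 0.25 and 0.26 in those 3 settings, against 0.02, 0.02 and 0.01 over all tested genes. Because the RNA is bulk, fewer cells that express a gene and less RNA per cell cannot be told apart.

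The 3 siRNA comparisons share no library. Called higher in all 3 were 9 p53 target genes (AEN, BAX, CDKN1A, EDA2R, GADD45A, MDM2, PLK2, SESN1 and XPC), against 9.36% of all tested genes. Called lower in all 3 were RRM2B, TP53INP1 and TRIAP1, against 10.9%. At the adjusted p alone, 19 rose in all 3 comparisons and 7 fell in all 3 (against 25.8 and 26.6% of all genes), and FAS, PLK3, POLH and TNFRSF10B did neither. Rising in all 3 were 4 of 4 genes of feedback and p53 control, 4 of 6 of the cell cycle, 5 of 11 tested genes of cell death and survival, 2 of 4 of DNA repair and 4 of 5 of metabolism and mitochondria. Of the 16 genes with a p53 match, 11 rose in all 3 comparisons, 3 fell in all 3 and 2 did neither, and of the 14 tested genes without a match 8 rose, 4 fell and 2 did neither.

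**Figure D2:**
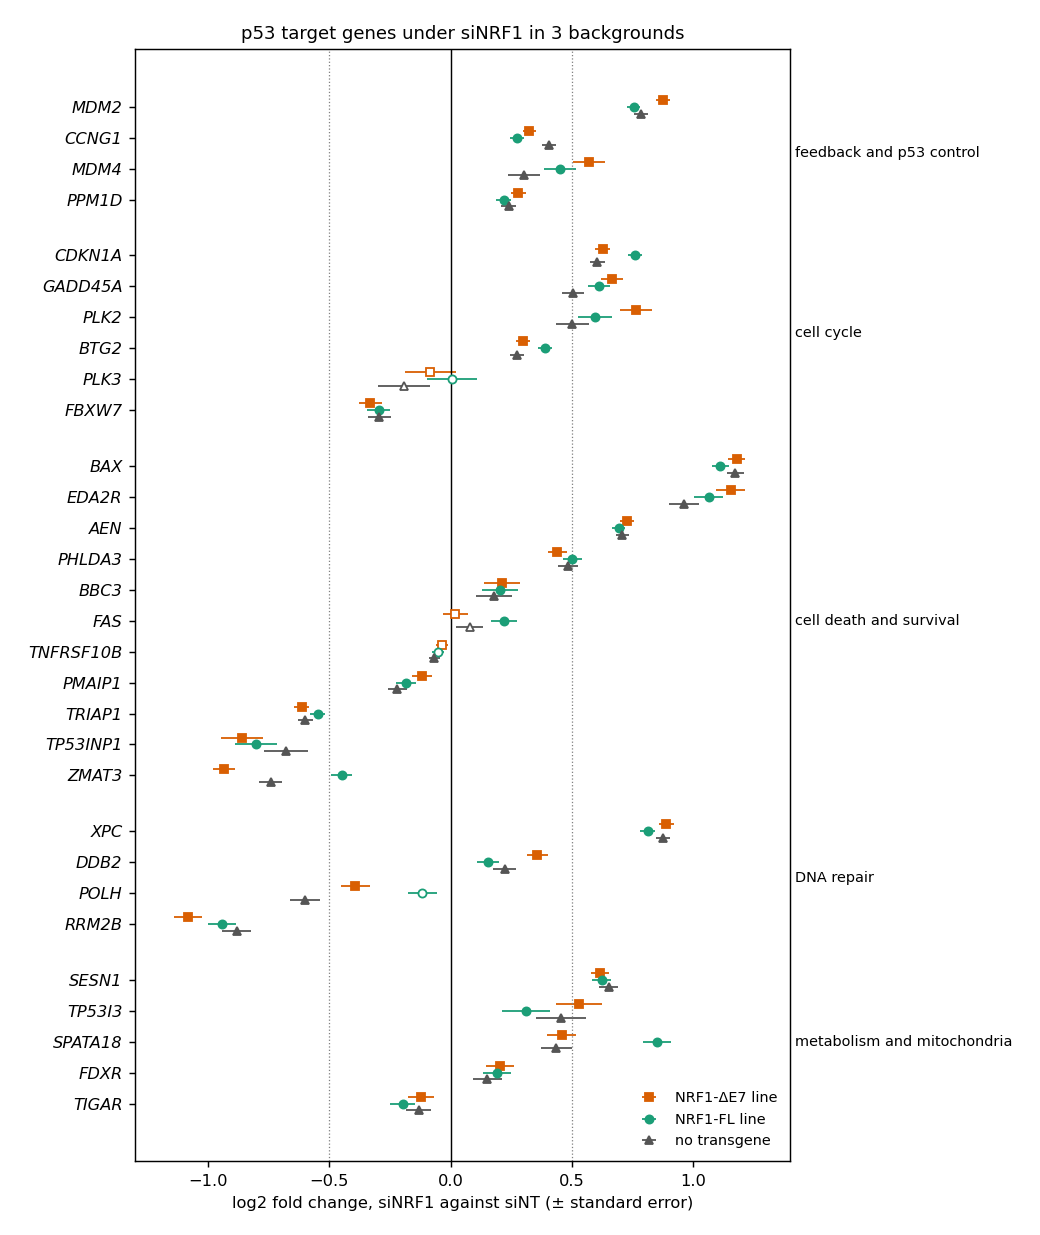
Log2 fold-change of siNRF1 against siNT (x axis, ± standard error) for the 30 tested p53 target genes (y axis), grouped by role, in the NRF1-ΔE7 line (squares), the NRF1-FL line (circles) and cells without a transgene (triangles). Filled symbols passed at an adjusted p under 0.05, and dotted lines mark log2 fold-changes of 0.5 in either direction. BAX and EDA2R lie farthest to the right and RRM2B farthest to the left, and the 3 symbols of most genes lie close together, with wide gaps for ZMAT3, POLH and SPATA18.

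The feedback genes of p53 all rose. MDM2 had 439, 457 and 435 CPM with siNRF1, against 234, 243 and 247 with siNT, in the NRF1-ΔE7 line. With NRF1-FL, MDM2 had 423, 429.6 and 438 CPM under siNRF1, against 256, 259 and 251 under siNT. Without a transgene, MDM2 had 399.7, 376 and 382 CPM in siNRF1 cells, against 224, 227 and 222 in siNT cells. No siNRF1 library overlapped an siNT library within any line, and the log2 fold-changes (± standard error) were 0.88 ± 0.0283 in the NRF1-ΔE7 line, 0.75 ± 0.0283 in the NRF1-FL line and 0.78 ± 0.0286 without a transgene (adjusted p at most 1.6e-16, edgeR's quasi-likelihood test). MDM4, whose product blocks the activation domain of p53, rose less, by 0.57 ± 0.0658, 0.45 ± 0.0664 and 0.30 ± 0.0660 in the NRF1-ΔE7 line, the NRF1-FL line and cells without a transgene. CCNG1, which encodes cyclin G1, rose by 0.32 ± 0.0276, 0.27 ± 0.0277 and 0.41 ± 0.0278, and PPM1D, the phosphatase Wip1 that reverses damage signalling, by 0.28 ± 0.0309, 0.22 ± 0.0311 and 0.24 ± 0.0314. The RNA for 4 proteins that restrain p53 or its signals was thus higher with siNRF1, and only MDM2 (in all 3) and MDM4 (in the NRF1-ΔE7 line) went past the fold threshold. MDM2 exons are overlapped on the opposite strand by those of CPM (carboxypeptidase M), and the sources used here do not say whether reads were counted by strand. CPM itself had log2 fold-changes of -0.16, 0.19 and 0.25.

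Among cell cycle genes, CDKN1A (the CDK inhibitor p21, which stops cells before S phase) stood high with siNRF1. CDKN1A had 172, 165 and 171 CPM with siNRF1, against 107, 110.2 and 112 with siNT, in the NRF1-ΔE7 line. With NRF1-FL, CDKN1A had 195, 187 and 181 CPM under siNRF1, against 109.8, 111 and 112 under siNT. Without a transgene, CDKN1A had 159, 162 and 161 CPM in siNRF1 cells, against 103, 105 and 109 in siNT cells. The groups did not overlap, and CDKN1A rose by 0.63 ± 0.0301 in the NRF1-ΔE7 line, 0.76 ± 0.0301 in the NRF1-FL line and 0.60 ± 0.0305 without a transgene (adjusted p at most 3.6e-14). GADD45A, a stress sensor that binds p21 and PCNA, followed the same direction. GADD45A had 78.8, 75.6 and 72.9 CPM with siNRF1, against 44.3, 46.6 and 52.1 with siNT, in the NRF1-ΔE7 line. With NRF1-FL, GADD45A had 70.2, 69.5 and 69.9 CPM under siNRF1, against 46.7, 46.6 and 44.003 under siNT. Without a transgene, GADD45A had 75.6, 71.01 and 73.6 CPM in siNRF1 cells, against 49.7, 53.6 and 52.3 in siNT cells. GADD45A thus had log2 fold-changes of 0.66 ± 0.0458, 0.61 ± 0.0466 and 0.50 ± 0.0461 in the same order of lines. In cells without a transgene this value lay at the fold threshold, and the call for GADD45A was lost there without siNRF1 replicate 1 or without siNT replicate 1.

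PLK2, a polo-like kinase induced by p53, also rose in all 3 lines. PLK2 had 22.2, 21.5 and 22.3 CPM with siNRF1, against 11.5, 14.2 and 13.1 with siNT, in the NRF1-ΔE7 line. With NRF1-FL, PLK2 had 16.8, 16.7 and 17.9 CPM under siNRF1, against 12.05, 10.1 and 11.96 under siNT. Without a transgene, PLK2 had 20.8, 20.005 and 19.5 CPM in siNRF1 cells, against 13.9, 14.5 and 14.3 in siNT cells. PLK2 thus had log2 fold-changes of 0.76 ± 0.0663, 0.59 ± 0.0695 and 0.50 ± 0.0670 (adjusted p at most 6.5e-07), and without a transgene its call was lost in the same way as that of GADD45A. The antiproliferative gene BTG2 rose by 0.30 ± 0.0290, 0.39 ± 0.0293 and 0.27 ± 0.0296, under the fold threshold. FBXW7, which encodes the substrate receptor of the ubiquitin ligase that degrades cyclin E and MYC, fell in all 3 lines, by log2 values of -0.33 ± 0.0465, -0.30 ± 0.0469 and -0.29 ± 0.0469. PLK3 did not pass, with -0.08 ± 0.104, 0.01 ± 0.104 and -0.19 ± 0.108, at mean levels of 4.40 to 5.35 CPM over the 6 conditions.

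p21 is known to lower cell cycle genes through the DREAM complex, and 20 such genes were listed beside the p53 target genes. AURKB (aurora kinase B) and CCNA2 (cyclin A2) were the only genes of this list called in any siRNA comparison, and both were called lower in all 3, which is 2 of 20 where 16.8, 14.0 and 15.2% of all genes were called lower in the NRF1-ΔE7 line, the NRF1-FL line and cells without a transgene. AURKB fell, with log2 fold-changes of -0.57 ± 0.0392, -0.55 ± 0.0394 and -0.58 ± 0.0396, and CCNA2 with -0.63 ± 0.0316, -0.53 ± 0.0317 and -0.56 ± 0.0318. In the NRF1-ΔE7 line 6 of the 20 passed upward and 7 downward, in the NRF1-FL line 8 and 8, and without a transgene 6 and 8, where 34.5, 32.2 and 32.1% of all genes passed upward and 33.6, 31.3 and 32.4% downward. The medians of the list were -0.05 in the NRF1-ΔE7 line, -0.02 in the NRF1-FL line and -0.03 without a transgene.

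**Figure D3:**
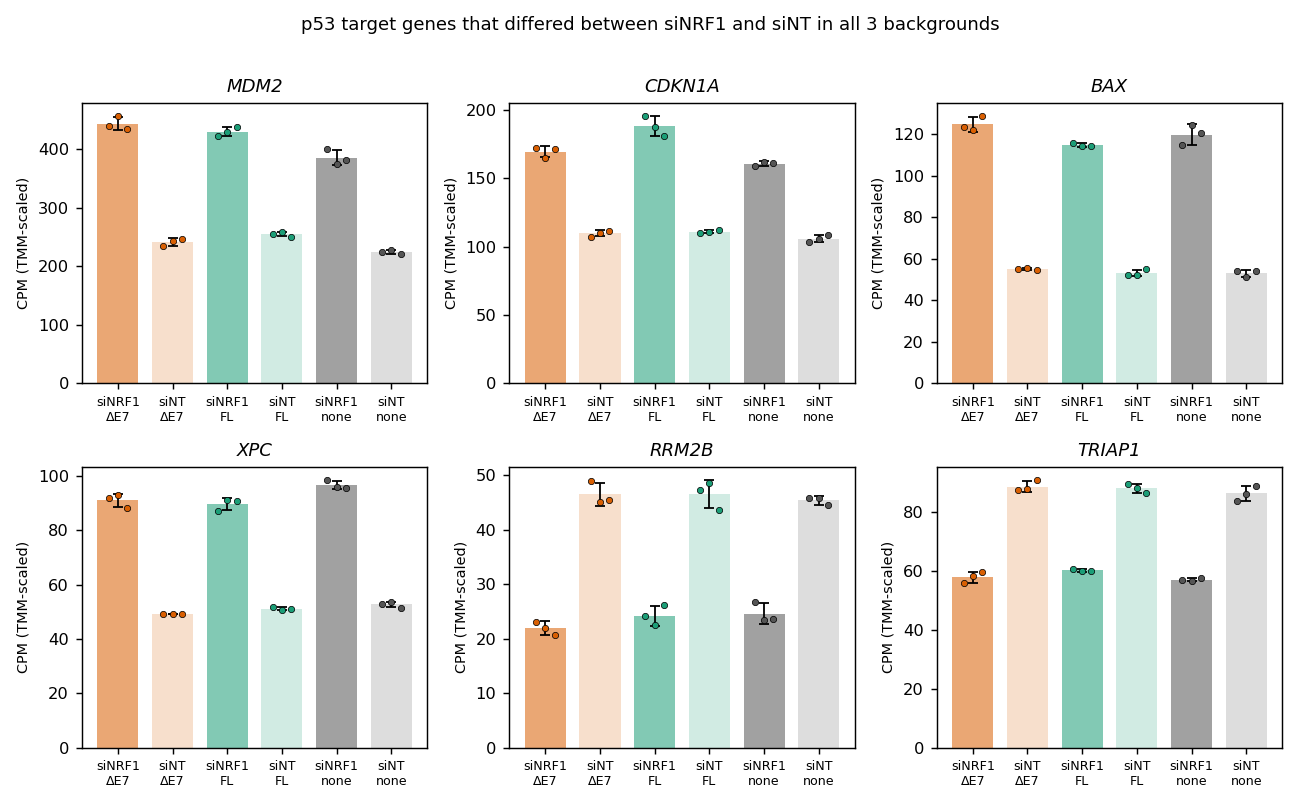
CPM (TMM-scaled, y axis from 0) of MDM2, CDKN1A, BAX, XPC, RRM2B and TRIAP1 in each condition. Bars are means of 3 libraries, error bars SDs and points single libraries, with siNRF1 in dark and siNT in pale colour for the NRF1-ΔE7 line, the NRF1-FL line and cells without a transgene. MDM2, CDKN1A, BAX and XPC are higher with siNRF1 in each pair and RRM2B and TRIAP1 lower, with no overlap of points.

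Cell death genes moved in both directions. BAX, which opens the outer mitochondrial membrane, held the widest rise of the list without a transgene and in the NRF1-ΔE7 and NRF1-FL lines. BAX had 124, 122 and 129 CPM with siNRF1, against 55.2, 55.6 and 54.7 with siNT, in the NRF1-ΔE7 line. With NRF1-FL, BAX had 116, 114 and 114 CPM under siNRF1, against 52.4, 52.2 and 54.9 under siNT. Without a transgene, BAX had 115, 125 and 120.5 CPM in siNRF1 cells, against 54.1, 51.2 and 53.95 in siNT cells. Every siNRF1 library held over double the CPM of any siNT library of its line, and BAX rose by 1.179 ± 0.0342 in the NRF1-ΔE7 line, 1.11 ± 0.0345 in the NRF1-FL line and 1.17 ± 0.0347 without a transgene (adjusted p at most 5e-18). EDA2R, a receptor for the TNF family member ectodysplasin A2, followed. EDA2R had 20.8, 19.7 and 19.02 CPM with siNRF1, against 8.73, 8.51 and 9.42 with siNT, in the NRF1-ΔE7 line. With NRF1-FL, EDA2R had 17.1, 18.5 and 18.1 CPM under siNRF1, against 7.93, 8.93 and 8.81 under siNT. Without a transgene, EDA2R had 15.7, 15.7 and 16.3 CPM in siNRF1 cells, against 8.16, 8.47 and 7.95 in siNT cells. EDA2R thus had log2 fold-changes of 1.15 ± 0.0590, 1.06 ± 0.0602 and 0.96 ± 0.0619 (adjusted p at most 2.9e-12).

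AEN, a nuclease that digests DNA in apoptosis, rose evenly. AEN had 295, 286 and 298 CPM with siNRF1, against 174, 178 and 179 with siNT, in the NRF1-ΔE7 line. With NRF1-FL, AEN had 292, 283 and 275 CPM under siNRF1, against 173, 177 and 177 under siNT. Without a transgene, AEN had 264, 276 and 266 CPM in siNRF1 cells, against 162, 164 and 168 in siNT cells. AEN thus had log2 fold-changes of 0.73 ± 0.0278, 0.69 ± 0.0279 and 0.71 ± 0.0281 (adjusted p at most 5.9e-16). PHLDA3, an inhibitor of the survival kinase AKT, rose by 0.44 ± 0.0395, 0.50 ± 0.0401 and 0.48 ± 0.0413, and only the NRF1-FL value was past the fold threshold, a call that was lost under RLE scaling, no count filter, DESeq2 and a fit of only the libraries compared, and without replicate 1 or 2 of either NRF1-FL condition. BBC3, which encodes the BH3-only killer PUMA, rose by 0.21 ± 0.0740, 0.20 ± 0.0742 and 0.18 ± 0.0734, with adjusted p of 0.016, 0.02 and 0.038. PMAIP1, which encodes the BH3-only protein NOXA, fell by log2 values of -0.12 ± 0.0410, -0.18 ± 0.0409 and -0.22 ± 0.0410.

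The death receptors stood apart from BAX. FAS, the receptor of FAS ligand, had 25.4 ± 1.33 CPM with siNRF1 and 25.1 ± 0.155 with siNT in the NRF1-ΔE7 line (log2 fold-change 0.02 ± 0.0532), and 24.2 ± 1.53 and 23.04 ± 1.64 without a transgene (0.08 ± 0.0549), neither of which passed. In the NRF1-FL line FAS rose to 32.7 ± 0.988 CPM with siNRF1, against 28.1 ± 0.704 with siNT (0.22 ± 0.0518, adjusted p = 0.00076, edgeR). FAS exons are overlapped on the opposite strand by ACTA2, which had log2 fold-changes of 1.88, 1.57 and 1.72. TNFRSF10B, the TRAIL receptor DR5, had -0.04 ± 0.0231, -0.05 ± 0.0232 and -0.07 ± 0.0234, and only the last passed. All 3 changed sign under upper-quartile scaling, to 0.0606 (adjusted p = 0.026, edgeR), 0.0316 and 0.0187, and RHOBTB2, whose exons overlap on the opposite strand, had 0.53, 0.44 and 0.44. TNFRSF10A, the TRAIL receptor DR4, was at 0 counts in most libraries and at most 0.0480 CPM, and was not tested.

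TRIAP1, TP53INP1 and ZMAT3 were lower with siNRF1 in all lines. The small product of TRIAP1 holds back apoptosis and carries phosphatidic acid into mitochondria. TRIAP1 had 55.8, 58.3 and 59.5 CPM with siNRF1, against 87.2, 87.7 and 90.7 with siNT, in the NRF1-ΔE7 line. With NRF1-FL, TRIAP1 had 60.7, 59.8 and 59.7 CPM under siNRF1, against 89.2, 88.04 and 86.4 under siNT. Without a transgene, TRIAP1 had 56.7, 56.6 and 57.4 CPM in siNRF1 cells, against 83.8, 85.97 and 88.8 in siNT cells. TRIAP1 thus had log2 fold-changes of -0.61 ± 0.0309, -0.55 ± 0.0311 and -0.60 ± 0.0314 (adjusted p at most 3.2e-13), and only in the NRF1-FL line did upper-quartile scaling take it under the fold threshold. TP53INP1, which promotes the killing phosphorylation of p53 and takes part in autophagy, fell at low levels. TP53INP1 had 7.17, 5.96 and 6.30 CPM with siNRF1, against 11.4, 11.2 and 12.6 with siNT, in the NRF1-ΔE7 line. With NRF1-FL, TP53INP1 had 7.05, 5.81 and 7.47 CPM under siNRF1, against 12.3, 10.9 and 12.1 under siNT. Without a transgene, TP53INP1 had 6.22, 6.28 and 6.60 CPM in siNRF1 cells, against 9.53, 10.5 and 10.7 in siNT cells. TP53INP1 thus had log2 fold-changes of -0.86 ± 0.0872, -0.80 ± 0.0882 and -0.68 ± 0.0906 (adjusted p at most 6.1e-07). TP53INP1 exons are overlapped on the opposite strand by NDUFAF6, which had 0.52, 0.47 and 0.53.

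ZMAT3, an RNA-binding protein induced by p53 and known to act on splicing, fell in every line but by unequal amounts. It was chosen for values by library after its values were seen. ZMAT3 had 26.3, 28.1 and 25.7 CPM with siNRF1, against 51.1, 48.5 and 53.1 with siNT, in the NRF1-ΔE7 line. With NRF1-FL, ZMAT3 had 34.3, 34.7 and 37.4 CPM under siNRF1, against 50.1, 48.7 and 46.3 under siNT. Without a transgene, ZMAT3 had 25.4, 25.01 and 24.6 CPM in siNRF1 cells, against 41.1, 42.3 and 42.1 in siNT cells. ZMAT3 had log2 fold-changes of -0.93 ± 0.0445 in the NRF1-ΔE7 line, -0.45 ± 0.0439 in the NRF1-FL line and -0.74 ± 0.0464 without a transgene (adjusted p at most 4.9e-09), and only the NRF1-FL value was under the fold threshold. This gene carries a mismatch-free p53 match in intron 1 and was lower with siNRF1, whereas PLK2, with the other mismatch-free match, was higher.

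The DNA repair genes divided in the same manner. XPC, which recognises lesions for nucleotide excision repair, rose. XPC had 91.97, 92.8 and 88.2 CPM with siNRF1, against 49.1, 49.05 and 49.2 with siNT, in the NRF1-ΔE7 line. With NRF1-FL, XPC had 87.2, 90.99 and 90.8 CPM under siNRF1, against 51.7, 50.5 and 51.03 under siNT. Without a transgene, XPC had 98.3, 95.8 and 95.5 CPM in siNRF1 cells, against 52.8, 53.7 and 51.5 in siNT cells. XPC thus had log2 fold-changes of 0.89 ± 0.0302, 0.81 ± 0.0302 and 0.88 ± 0.0302 (adjusted p at most 1.3e-16). DDB2, a partner in recognising ultraviolet lesions, rose by 0.36 ± 0.0450, 0.15 ± 0.0457 and 0.22 ± 0.0472. XPC-AS1 overlaps XPC exons on the opposite strand, and its part was not tested.

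RRM2B, the p53-inducible subunit of ribonucleotide reductase that supplies nucleotides to resting cells and mitochondria, moved against XPC. RRM2B had 23.1, 21.99 and 20.7 CPM with siNRF1, against 48.9, 45.1 and 45.5 with siNT, in the NRF1-ΔE7 line. With NRF1-FL, RRM2B had 24.1, 22.5 and 26.1 CPM under siNRF1, against 47.3, 48.6 and 43.6 under siNT. Without a transgene, RRM2B had 26.8, 23.4 and 23.5 CPM in siNRF1 cells, against 45.8, 45.8 and 44.5 in siNT cells. Each siNRF1 library lay below every siNT library of its line, and RRM2B had log2 fold-changes of -1.08 ± 0.0585 in the NRF1-ΔE7 line, -0.94 ± 0.0587 in the NRF1-FL line and -0.88 ± 0.0589 without a transgene (adjusted p at most 5.6e-12). RRM2B also holds a p53 match with 1 mismatch, 2112 bases downstream of its start in intron 1. POLH, the translesion DNA polymerase eta, fell by log2 values of -0.39 ± 0.0602 in the NRF1-ΔE7 line and -0.60 ± 0.0618 without a transgene, and had -0.12 ± 0.0581 (adjusted p = 0.086, edgeR) in the NRF1-FL line. GTPBP2, whose exons overlap those of POLH on the opposite strand, had 0.24, 0.03 and 0.02.

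Of the metabolic and mitochondrial genes, SESN1, a sestrin that restrains mTORC1 and peroxides, rose most evenly. SESN1 had 68.6, 72.3 and 71.4 CPM with siNRF1, against 46.6, 47.04 and 44.997 with siNT, in the NRF1-ΔE7 line. With NRF1-FL, SESN1 had 74.3, 77.6 and 72.4 CPM under siNRF1, against 49.4, 49.4 and 47.2 under siNT. Without a transgene, SESN1 had 72.1, 68.4 and 74.4 CPM in siNRF1 cells, against 45.4, 47.4 and 44.2 in siNT cells. SESN1 thus had log2 fold-changes of 0.62 ± 0.0383, 0.62 ± 0.0382 and 0.65 ± 0.0388 (adjusted p at most 1.4e-12). TP53I3, an oxidoreductase also called PIG3, rose by 0.53 ± 0.0953, 0.31 ± 0.0992 and 0.45 ± 0.103 at mean levels of 3.87 to 7.15 CPM, and its call in the NRF1-ΔE7 line was lost without siNRF1 with NRF1-ΔE7 replicate 1. FAM228B, on the opposite strand of TP53I3 exons, had 0.28, 0.21 and 0.54. FDXR, the mitochondrial ferredoxin reductase, rose by 0.20 ± 0.0585, 0.19 ± 0.0574 and 0.15 ± 0.0596, and TIGAR, which diverts glucose into the pentose phosphate pathway, fell by log2 values of -0.12 ± 0.0522, -0.20 ± 0.0523 and -0.13 ± 0.0531.

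SPATA18, also called MIEAP and known for the handling of damaged mitochondria, rose most in the NRF1-FL line. SPATA18 had 17.02, 16.8 and 17.1 CPM with siNRF1, against 12.7, 11.5 and 12.9 with siNT, in the NRF1-ΔE7 line. With NRF1-FL, SPATA18 had 26.5, 28.8 and 26.5 CPM under siNRF1, against 15.4, 15.95 and 14.1 under siNT. Without a transgene, SPATA18 had 14.9, 13.9 and 14.6 CPM in siNRF1 cells, against 11.2, 10.3 and 10.6 in siNT cells. SPATA18 had log2 fold-changes of 0.46 ± 0.0596 in the NRF1-ΔE7 line, 0.85 ± 0.0563 in the NRF1-FL line and 0.44 ± 0.0629 without a transgene (adjusted p at most 2e-06). The siNRF1 libraries with NRF1-FL lay above every other library of the series.

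Most p53 target genes still differed between siNRF1 and siNT, at the adjusted p, in the lines with a resistant transgene. Whether the response differed was tested by the interaction, the siRNA response in a line minus that without a transgene. In the NRF1-ΔE7 line, 0 of 30 p53 target genes passed it by edgeR at the adjusted p, where 0.440% of all genes passed upward and 1.59% downward (0.0668 and 0.0891% with the fold threshold). In the NRF1-FL line 4 passed, all above 0 (CDKN1A and SPATA18, which rose more there, ZMAT3, which fell less, and POLH, which fell in cells without a transgene), where 4.18% of all genes passed upward and 1.15% downward (1.75 and 0.150% with the fold threshold, which none of the 4 met). The CDKN1A call was lost in 9 of the 12 fits that left out 1 library (adjusted p up to 0.13, edgeR). MDM2 had interactions of 0.09 ± 0.0401 in the NRF1-ΔE7 line (adjusted p = 0.25) and -0.03 ± 0.0401 in the NRF1-FL line (adjusted p = 0.81), and BAX had 0.01 ± 0.0487 (adjusted p = 0.97) and -0.06 ± 0.0489 (adjusted p = 0.62). RRM2B had -0.20 ± 0.0832 (adjusted p = 0.23) and -0.06 ± 0.0834 (adjusted p = 0.81). A p that misses the threshold does not show equal responses.

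The sequence of the siRNA is given because bases 2 to 8 of a guide strand, the seed, can pair with 3′ UTRs of other genes. Capitals mark the seed in the guide and its complement in the listed strand.
NRF1 siRNA, strand as listed: gcuauuguccuCUGUAUCu
NRF1 siRNA guide strand: aGAUACAGaggacaauagc
A 7-base match to the seed (CTGTATC) was present in the annotated 3′ UTR of 6 of 30 tested p53 target genes, against 11.01% of 14245 tested genes with a 3′ UTR. These sites are shown with the match in capitals, on the gene's strand.
ZMAT3: ttttttttCTGTATCatgtctcc (chr3:179024274-179024296, minus strand)
POLH: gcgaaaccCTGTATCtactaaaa (chr6:43617009-43617031, plus strand)
POLH: agctggcaCTGTATCtctgccag (chr6:43620151-43620173, plus strand)
FBXW7: gtttaacaCTGTATCctaggcga (chr4:152321468-152321490, minus strand)
TIGAR: ctgagctaCTGTATCctcataga (chr12:4358318-4358340, plus strand)
PHLDA3: gtcacttaCTGTATCcaattgta (chr1:201464373-201464395, minus strand)
DDB2: gggcccctCTGTATCtagcctgg (chr11:47239075-47239097, plus strand)
Of these, FBXW7, TIGAR and ZMAT3 fell with siNRF1 in all 3 lines, POLH fell in 2 of them, and DDB2 and PHLDA3 rose in all 3. Over all tested genes, those with a match had median log2 fold-changes of -0.37 in the NRF1-ΔE7 line, -0.32 in the NRF1-FL line and -0.30 without a transgene, against 0.05, 0.05 and 0.03 for those without one. Of the genes with a match 42.1, 39.1 and 39.7% were called lower, against 14.6, 11.3 and 12.8% of those without one. Longer 3′ UTRs have more room for a match, and the genes compared were not matched for 3′ UTR length. The part of the seed in the values of single p53 target genes was not tested. MDM2, CDKN1A, BAX, XPC, RRM2B, TRIAP1 and TP53INP1 have no such match.

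Between the isoforms, with siNRF1 present, few p53 target genes were called, as was so of all tested genes. SPATA18 alone was called, with less RNA under NRF1-ΔE7, against 4.10% of all tested genes called lower, and 0 of 30 were called higher, against 2.11%. At the adjusted p alone, 6 rose and 7 fell, where 13.9% of all genes rose and 17.8% fell. The median of the p53 target genes was -0.02, against 0.00 over all genes. These libraries are also those of the siRNA comparisons above, so the values are not independent of them. NRF1 RNA, transgene included, was itself lower with NRF1-ΔE7 here, by a log2 value of -0.37 ± 0.0451 (adjusted p = 9e-07, edgeR). Under siNT its difference was 0.10 ± 0.0439 and did not pass. The part of the NRF1 level in the isoform values was not tested.

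**Figure D4:**
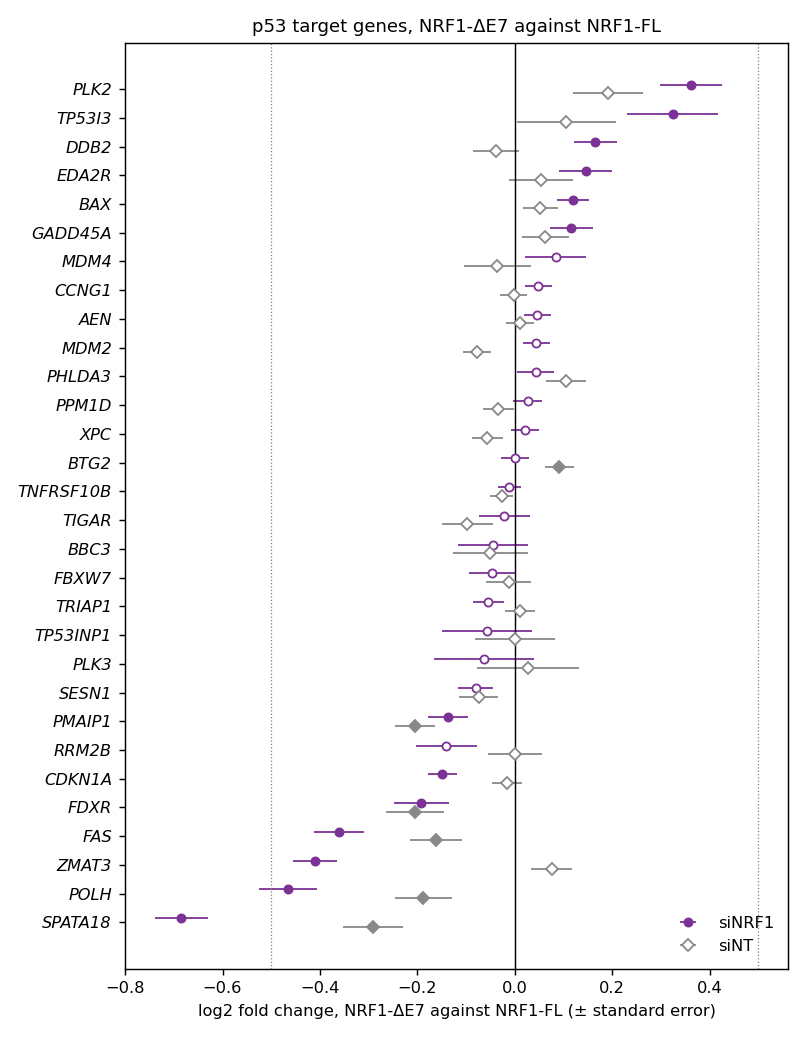
Log2 fold-change of NRF1-ΔE7 against NRF1-FL (x axis, ± standard error) for the 30 tested p53 target genes (y axis), with siNRF1 (circles) and with siNT (diamonds). Filled symbols passed at an adjusted p under 0.05, and dotted lines mark 0.5 in either direction. SPATA18 with siNRF1 lies alone beyond the dotted lines, and most genes cluster around 0.

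SPATA18 had 17.02, 16.8 and 17.1 CPM with NRF1-ΔE7 and 26.5, 28.8 and 26.5 CPM with NRF1-FL under siNRF1. The groups stood well apart, and SPATA18 fell by a log2 value of -0.68 ± 0.0546 (adjusted p = 1.3e-09, edgeR). Under siNT the values were 12.7, 11.5 and 12.9 CPM with NRF1-ΔE7 and 15.4, 15.95 and 14.1 with NRF1-FL (log2 fold-change -0.29 ± 0.0613, adjusted p = 0.0017). POLH and ZMAT3 came next, and they, FAS, PLK2 and TP53I3 are described after their values were seen.

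POLH had 16.2, 17.1 and 16.2 CPM with NRF1-ΔE7 and 20.3, 23.4 and 24.6 with NRF1-FL under siNRF1 (log2 fold-change -0.46 ± 0.0596, adjusted p = 2e-06). In siNRF1 cells without a transgene POLH had 14.5, 14.5 and 15.4 CPM, close to the NRF1-ΔE7 line, and in siNT cells of the 3 kinds it had 21.6 ± 1.08 with NRF1-ΔE7, 24.7 ± 0.881 with NRF1-FL and 22.5 ± 0.626 CPM without a transgene. ZMAT3 had 26.7 ± 1.29 CPM with NRF1-ΔE7 and 35.4 ± 1.68 with NRF1-FL under siNRF1 (-0.41 ± 0.0458, adjusted p = 2.6e-07). Under siNT, ZMAT3 had 50.9 ± 2.32 and 48.4 ± 1.89 CPM, a difference of 0.08 ± 0.0426 that did not pass.

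FAS fell by a log2 value of -0.36 ± 0.0515 with NRF1-ΔE7 under siNRF1 (adjusted p = 8.3e-06), and CDKN1A by -0.15 ± 0.0292 (adjusted p = 0.00036). FDXR and PMAIP1 were also lower, with -0.19 ± 0.0565 and -0.14 ± 0.0409. On the higher side were PLK2 with 0.36 ± 0.0637 (adjusted p = 0.00012), TP53I3 with 0.32 ± 0.0931, DDB2 with 0.17 ± 0.0442, EDA2R with 0.15 ± 0.0539, BAX with 0.12 ± 0.0320 and GADD45A with 0.12 ± 0.0440, and GADD45A no longer passed with the replicate number as a block (adjusted p = 0.057, edgeR). Opposite-strand partners had 0.26 for GTPBP2 at POLH and 0.26 for FAM228B at TP53I3 in this comparison, and their part was not tested. MDM2, at 0.04 ± 0.0277, did not pass (adjusted p = 0.24). With siNT, 0 of 30 were called by edgeR in either direction (1.05% of all genes were called higher and 1.16% lower), and at the adjusted p BTG2 alone rose and FAS, FDXR, PMAIP1, POLH and SPATA18 fell, beside 7.13% of all genes upward and 8.42% downward. The interaction of isoform and siRNA passed for 3, POLH, SPATA18 and ZMAT3, all below 0, where 1.64% of all genes passed upward and 5.55% downward (0.317 and 1.92% with the fold threshold). The POLH interaction was also lost in 9 of 12 fits with 1 library left out (adjusted p up to 0.13, edgeR).

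**Figure D5:**
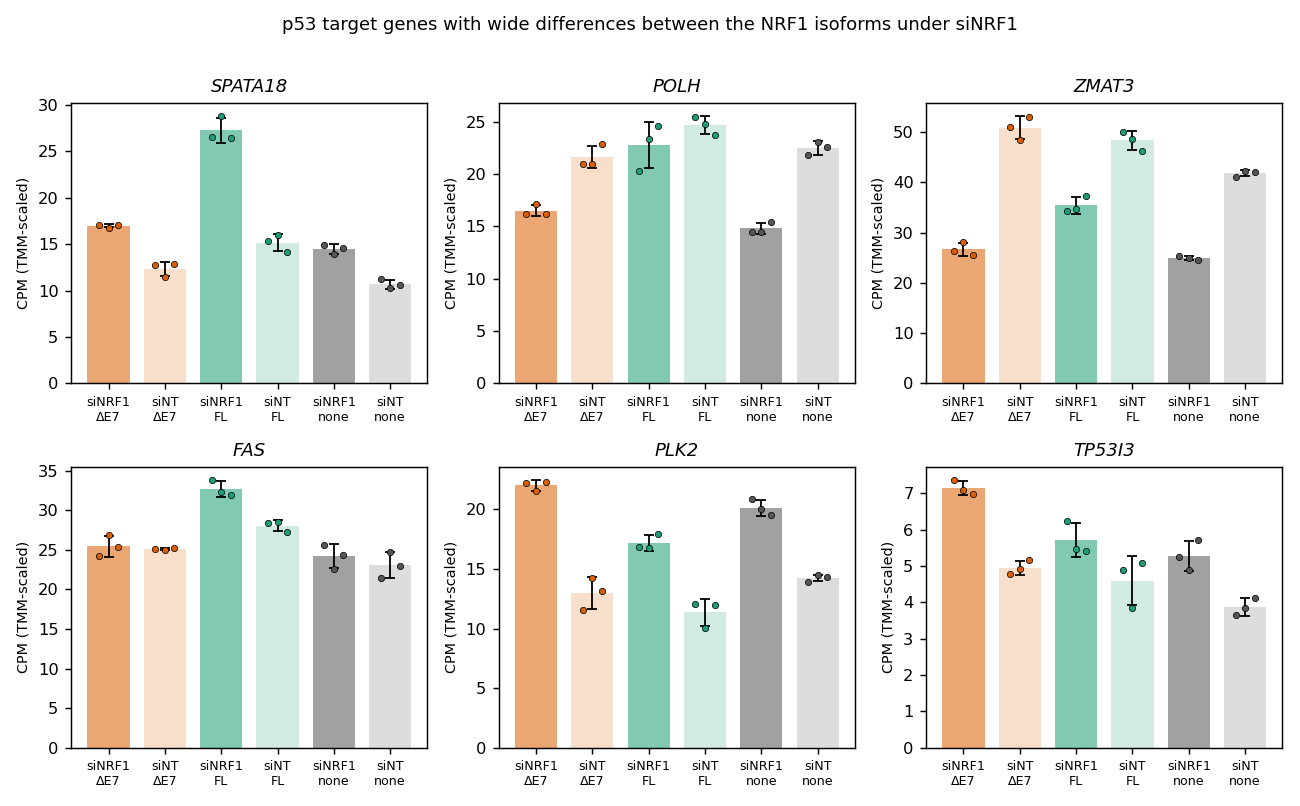
CPM (TMM-scaled, y axis from 0) of SPATA18, POLH, ZMAT3, FAS, PLK2 and TP53I3 in each condition. Bars are means of 3 libraries, error bars SDs and points single libraries, with siNRF1 in dark and siNT in pale colour for the NRF1-ΔE7 line, the NRF1-FL line and cells without a transgene. SPATA18 and FAS are highest with siNRF1 and NRF1-FL, while POLH and ZMAT3 with siNRF1 are lower in the NRF1-ΔE7 line and without a transgene than in the NRF1-FL line.

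The NRF1 motif (GCGC, any base, then TGCGC, searched on both strands of the RefSeq promoter window) is shown because NRF1 is the protein perturbed. It was found for 3 of 25 p53 target genes with a RefSeq promoter (GRCh38.p14), against 10.95% of 11713 tested genes, with 2 copies at POLH centred at -147 and -124 bases from its start. Capitals mark the motif on the gene's strand.
POLH: agccggcgctGCGCACGCGCccggcccgcc (chr6:43576023-43576052, plus strand)
POLH: gcccgccactGCGCACGCGCccgcggaagt (chr6:43576046-43576075, plus strand)
TIGAR: gcgcgcagggGCGCAAGCGCcgcagccctg (chr12:4321038-4321067, plus strand)
PPM1D: gaagcgcagtGCGCAGGCGCaactgcctgg (chr17:60600186-60600215, plus strand)
POLH thus holds NRF1 motifs and 2 seed matches, TIGAR holds a motif and a seed match, and PPM1D a motif alone. Against no transgene under siNRF1, POLH with NRF1-FL was higher by 0.62 ± 0.0612 and with NRF1-ΔE7 by 0.15 ± 0.0623, of which the first passed. TIGAR had -0.02 ± 0.0523 and PPM1D 0.03 ± 0.0303 between the isoforms under siNRF1, and neither passed. Over all tested genes, those with the motif had a median of -0.11 between the isoforms under siNRF1, against 0.01 for those without it. With siNRF1 against siNT, the medians with the motif were -0.18 in the NRF1-ΔE7 line, -0.04 in the NRF1-FL line and -0.17 without a transgene. For genes without the motif they were 0.04, 0.03 and 0.03. Of the genes with the motif 27.4, 15.5 and 26.7% were called lower there, against 16.1, 14.1 and 14.3% of the others. Called higher were 8.57, 7.95 and 6.55%, against 16.3, 13.5 and 14.1%. SPATA18 and ZMAT3 hold no motif in this window.

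Set against cells without a transgene, the NRF1-ΔE7 line with siNRF1 had 0 of 30 p53 target genes called by edgeR, where 1.31% of all genes were called higher and 1.05% lower. At the adjusted p alone 9 were higher and 1 lower, against 9.59 and 11.8% of all genes. The NRF1-FL line with siNRF1 had SPATA18, POLH and ZMAT3 called higher and 0 lower, against 3.69 and 1.11% of all genes, and at the adjusted p alone 13 were higher and 3 lower, against 12.7 and 9.72%. SPATA18 was higher there by 0.91 ± 0.0563 and ZMAT3 by 0.50 ± 0.0468, a value at the fold threshold. With siNT, 0 of 30 were called in either line (1.29% of all genes higher and 0.930% lower with NRF1-ΔE7, 0.779 and 0.457% with NRF1-FL), and at the adjusted p 8 were higher and 2 lower with NRF1-ΔE7 (8.62 and 7.69% of all genes), and 9 higher and 2 lower with NRF1-FL (5.33 and 2.81%). MDM2 was among these, with 0.11 ± 0.0289 with NRF1-ΔE7 and 0.19 ± 0.0288 with NRF1-FL, and so was SPATA18, with 0.21 ± 0.0647 and 0.50 ± 0.0628. The last value also lay at the fold threshold and was not called. The siNT and siNRF1 libraries without a transgene serve as the base of both lines here.

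Among genes that act with or upstream of p53, TP73, whose product p73 binds the same element, was higher. It had 73.7, 69.5 and 71.7 CPM with siNRF1 and 35.6, 35.3 and 32.7 with siNT in the NRF1-ΔE7 line, and it rose by log2 values of 1.05 ± 0.0377, 0.86 ± 0.0366 and 1.02 ± 0.0369 (adjusted p at most 1.6e-15). TP63, another relative, was called higher in cells without a transgene (3.70 ± 0.956, adjusted p = 0.0017), at 0.594, 0.0889 and 1.63 CPM with siNRF1 and 0.0249, 0.101 and 0.0574 with siNT. The 2 libraries that set this value are those with the most KRT5, and without siNRF1 replicate 3 it was 2.56 (adjusted p = 0.036, edgeR). In the lines TP63 had -0.20 ± 0.979 with NRF1-ΔE7 and -0.95 ± 1.55 with NRF1-FL. In the NRF1-ΔE7 line TP63 was highest in replicate 2 of each siRNA, at 0.353 CPM with siNRF1 and 0.436 with siNT. These libraries also held KRT5, at 1.51 and 0.471 CPM of the library total.

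Of the 22 listed relatives and regulators of p53, 8, 9 and 10 rose and 9, 9 and 10 fell at the adjusted p in the NRF1-ΔE7 line, the NRF1-FL line and cells without a transgene, where 34.5, 32.2 and 32.1% of all genes rose and 33.6, 31.3 and 32.4% fell. TP53BP1, a partner of p53 in the damage response, rose by 0.68 ± 0.0327, 0.75 ± 0.0327 and 0.71 ± 0.0330. USP7, the deubiquitinase of MDM2 and p53, fell with -0.76 ± 0.0392, -0.70 ± 0.0392 and -0.60 ± 0.0393, and COP1, a ubiquitin ligase for p53, with -0.73 ± 0.0478, -0.63 ± 0.0482 and -0.66 ± 0.0487. TP53BP1, TP63 and USP7 have a 7-base seed match in the 3′ UTR, and TP73 and COP1 have none.

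The 32 other p53 targets, of which 31 were tested, also moved both ways. At the adjusted p 18, 18 and 16 rose and 9, 9 and 11 fell, in the same order of lines and beside the same shares of all genes, with medians of 0.20, 0.29 and 0.21, against 0.02, 0.02 and 0.01 over all genes. INKA2, an inhibitor of the kinase PAK4, rose by 1.16 ± 0.0612, 1.09 ± 0.0590 and 1.15 ± 0.0601. The small GTPase gene RAP2B fell with -2.13 ± 0.0628, -1.70 ± 0.0602 and -1.89 ± 0.0620, and FUCA1, a lysosomal fucosidase, with -1.31 ± 0.0527, -0.94 ± 0.0508 and -1.26 ± 0.0541, and both have a seed match. GDF15, a secreted stress cytokine and common readout of p53, fell with -1.25 ± 0.120, -0.88 ± 0.121 and -1.11 ± 0.122 and has none. Between the isoforms under siNRF1, RAP2B (-0.55 ± 0.0711), FUCA1 (-0.50 ± 0.0556) and the decoy receptor gene TNFRSF10C (-1.24 ± 0.444, adjusted p = 0.036, edgeR) were called lower with NRF1-ΔE7. The FUCA1 value lay at the fold threshold. No gene of this list was called higher, where 4.10% of all tested genes were called lower and 2.11% higher. TNFRSF10C lay near the floor, at 7, 5 and 6 counts with NRF1-ΔE7 and 16, 12 and 9 with NRF1-FL. Under siNT it had 8, 5 and 4 counts with NRF1-ΔE7 and 16, 15 and 18 with NRF1-FL.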

How the data were processed

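The RNA-Seq libraries were 18, from HEK293 Flp-In cells in 6 conditions of 3. According to the methods and the submitters' processing notes, the authors trimmed reads with Cutadapt 1.18 and aligned them to hg38 and GENCODE v30 with STAR 2.7.0f, and DESeq2 1.46.0 is also named in those notes. Per gene, the authors deposited expected counts without normalization (91.9% of values whole). The counting tool and its use of strand were not given in the sources used here. For that reason the 7 p53 target genes with exons on the opposite strand of another tested gene are uncertain. Exons of FAS, MDM2 and TIGAR also overlap those of another tested gene on the same strand, and the part of that overlap was not tested. Of 36 columns of per-library values in the table, 18 match no sample here and were not used.

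Counts were rounded, genes were filtered with filterByExpr (minimum count 10, which left 17962 of 58870), and libraries were scaled by TMM (factors 0.944 to 1.07). Tests were quasi-likelihood F tests of edgeR 4.0.16 (R 4.3.3, two-sided, Benjamini-Hochberg over all genes tested) with all 18 libraries in 1 model, each condition having its own mean (residual degrees of freedom 12, biological coefficient of variation 0.0337). Standard errors are the log2 fold-change over the root of F. Called genes had an adjusted p under 0.05 with a fold-change beyond 0.5 on the log2 scale in either direction. Depth was 31.2 to 44.8 M counts a library. Intervals and p-values cover the spread between these libraries. The p53 target genes and the other gene lists were chosen with earlier results of these data known. Values by library are given for genes called between the isoforms under siNRF1 or in all 3 siRNA comparisons and for MDM2, CDKN1A and BAX. Of the other lists, TP63, TP73 and the 3 largest called changes of each list in each comparison are named, and 2 listed genes are not reported here. The p53 search window of 3000 bases was set after the expression results were seen.

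Alternatives were RLE and upper-quartile scaling, other count filters, DESeq2 1.42.0, a replicate block, a fit of only the libraries compared, other fold thresholds, and leaving out libraries. The steps were also run on simulated counts, with the same spread for all genes and known changes in a single condition. The outcome is not given here. Promoters are from RefSeq (GRCh38.p14) and cover 25 of 31 p53 target genes, and positions and 3′ UTRs are from GENCODE v44 on hg38.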

Additional observations from a re-analysis of the deposited data

Results flagged for a closer look

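The siRNA response of 4 p53 target genes differed between the NRF1-FL line and cells without a transgene, by the interaction term of edgeR's quasi-likelihood test. The differences in log2 fold-change (NRF1-FL line minus no transgene, ± standard error) were 0.48 ± 0.0849 for POLH (adjusted p = 0.00056), 0.41 ± 0.0846 for SPATA18 (adjusted p = 0.0028), 0.29 ± 0.0639 for ZMAT3 (adjusted p = 0.0051) and 0.16 ± 0.0428 for CDKN1A (adjusted p = 0.032). In the NRF1-FL line siNRF1 lowered ZMAT3 less and raised SPATA18 and CDKN1A more, and the decrease of POLH did not pass. POLH, ZMAT3 and SPATA18 also differed in siRNA response between the isoform lines, with NRF1-ΔE7 minus NRF1-FL values of -0.49 ± 0.0625 for ZMAT3 (adjusted p = 8.5e-06), -0.39 ± 0.0822 for SPATA18 (adjusted p = 0.0029) and -0.28 ± 0.0837 for POLH (adjusted p = 0.046). Both sets of values use the same NRF1-FL libraries. Leaving out each of the 12 libraries of a comparison in turn lost the call 9 times for CDKN1A in the NRF1-FL line (adjusted p 0.016 to 0.13, edgeR), with at least 1 library of each condition among them, and 9 times for POLH between the isoform lines (0.0033 to 0.13). CDKN1A also did not pass under RLE scaling or with no count filter (adjusted p = 0.053 and 0.099), and POLH under upper-quartile scaling, DESeq2 or a fit of only the libraries compared (0.057, 0.064 and 0.061). The other interaction calls held with any 1 library left out, and that of ZMAT3 in the NRF1-FL line had an adjusted p of 0.079 without siNRF1 replicates 1 and 3, where the 1 library left in that condition is assumed to vary like the others.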

How the results depend on the processing

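Without a fold threshold, p53 target genes higher and lower with siNRF1 were 19 and 8 in the NRF1-ΔE7 line, 20 and 7 in the NRF1-FL line and 19 and 9 without a transgene, and between the isoforms they were 6 and 7 with siNRF1 and 1 and 5 with siNT. Above an absolute log2 fold-change of 1 they were 2 and 1, 2 and 0, and 1 and 0 with siNRF1, and 0 were lower between the isoforms. Leaving out each library in turn gave 10 to 11 higher and 4 lower in the NRF1-ΔE7 line, 10 to 11 and 3 in the NRF1-FL line, 8 to 10 and 5 without a transgene, 0 higher and 1 to 2 lower between the isoforms with siNRF1 and 0 with siNT. Upper-quartile scaling moved the median of all genes up by 0.10, 0.08 and 0.09 in the 3 siRNA comparisons, and 59.5, 59.6 and 57.7% of calls were then higher. Of the values of p53 target genes in the 5 comparisons, 23 changed sign under at least 1 alternative. TNFRSF10B without a transgene (0.0187 under upper-quartile scaling) was the only one of them that had passed, and the others lay within 0.11 of 0.

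With the replicate block the counts of calls were unchanged, at 11 and 4 in the NRF1-ΔE7 line, 11 and 3 in the NRF1-FL line and 9 and 5 without a transgene, and GADD45A between the isoforms with siNRF1 no longer passed (0.12, adjusted p = 0.057, edgeR). The labels do not say that the numbers pair samples. Deviations of same-numbered libraries correlated from -0.203 to 0.240 (45 pairs, 10 of them above 0.1). Those of different-numbered libraries correlated from -0.448 to 0.292 (90 pairs, 11 of them above 0.1). For 12 of 18 libraries the mean correlation was higher with libraries of their own number than with those of other numbers. At the adjusted p alone, changes near the threshold (BBC3, TIGAR, FDXR and, with siNT, BTG2, FAS and POLH) depend most on the setting. With the fold threshold, an alternative or a left-out library removed siRNA calls of PHLDA3 and TRIAP1 in the NRF1-FL line. The same was so of TP53I3 in the NRF1-ΔE7 line and of GADD45A and PLK2 without a transgene.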
